A study of Mus musculus with 15 samples.

Results

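De novo lipogenesis is the making of fatty acids from carbohydrate carbon, and 10 of its genes were read here in mouse liver: the regulators Srebf1, Mlxipl and Thrsp, and the enzymes Pklr, Acly, Me1, Acaca, Acacb, Fasn and Elovl6. They are known core genes of the pathway, picked by symbol with earlier results of these data known, and all 10 were found among the 17527 genes of the expression table. Livers came from 3 groups with 5 RNA sequencing libraries each. BBBPH mice received a high-fat, high-sucrose diet (60% of energy as fat, 20% as protein, 20% as carbohydrate, 0.2% cholesterol) with sugar water (42 g/L, 55% sucrose and 45% fructose) for 20 weeks, and after week 12 a daily oral dose of 150 mg/kg of biotransformed bear bile powder (BBBPH). Model mice received the same diet and water, with saline in place of the powder, as a model of nonalcoholic steatohepatitis, and control mice were not described further. The labels give 14 dosed mice, of which 5 were sequenced, and name neither strain, sex nor age nor the diet of the control mice. They do not say outright that each library is a separate animal, so p-values measure the spread between these samples.

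In this pathway, pyruvate kinase (Pklr) closes glycolysis, citrate leaving the mitochondrion is split by ATP citrate lyase (Acly) to cytosolic acetyl-CoA, and acetyl-CoA carboxylases (Acaca, Acacb) make malonyl-CoA from it. Fatty acid synthase (Fasn) builds palmitate from malonyl-CoA with NADPH, part of which comes from malic enzyme (Me1), and Elovl6 lengthens palmitate to stearate. In the liver the genes are known to be driven by SREBP-1c (from Srebf1), which answers to insulin and to the oxysterol receptor LXR, and by ChREBP (from Mlxipl), which answers to sugar.

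Promoter sequence is shown for 4 genes whose levels the results turn on and in which a motif searched for was found. Each line gives 200 bases before a RefSeq transcription start (GRCm38.p6), 5′ to 3′ along the gene, and capitals mark motif letters on either strand (ATTGG is CCAAT read on the other strand).
Fasn, chr11:120824548-120824747, minus strand: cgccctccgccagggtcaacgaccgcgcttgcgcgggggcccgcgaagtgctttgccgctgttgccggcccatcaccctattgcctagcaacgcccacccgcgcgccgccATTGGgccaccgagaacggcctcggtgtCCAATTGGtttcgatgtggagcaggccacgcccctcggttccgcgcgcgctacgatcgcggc
Thrsp, chr7:97417551-97417750, minus strand: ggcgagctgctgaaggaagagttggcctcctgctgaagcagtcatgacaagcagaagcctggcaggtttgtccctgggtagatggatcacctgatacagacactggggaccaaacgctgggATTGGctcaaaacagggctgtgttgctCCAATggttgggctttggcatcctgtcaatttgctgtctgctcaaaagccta
Pklr, chr3:89136423-89136622, plus strand: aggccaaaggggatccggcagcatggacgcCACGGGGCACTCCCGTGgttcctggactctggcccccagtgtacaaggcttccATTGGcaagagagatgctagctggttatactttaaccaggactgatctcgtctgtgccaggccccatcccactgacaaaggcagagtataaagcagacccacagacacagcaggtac
Mlxipl, upstream start, chr5:135089690-135089889, plus strand: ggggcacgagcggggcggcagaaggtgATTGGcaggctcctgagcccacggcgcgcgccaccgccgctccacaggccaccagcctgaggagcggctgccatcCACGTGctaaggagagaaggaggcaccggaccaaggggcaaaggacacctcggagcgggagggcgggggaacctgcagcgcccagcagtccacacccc
Mlxipl, downstream start, chr5:135106691-135106890, plus strand: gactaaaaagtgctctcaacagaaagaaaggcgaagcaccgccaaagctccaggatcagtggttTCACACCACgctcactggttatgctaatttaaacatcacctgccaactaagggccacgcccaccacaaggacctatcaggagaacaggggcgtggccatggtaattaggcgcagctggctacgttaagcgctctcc
Counting back from the start, Fasn held CCAAT boxes (CCAAT, the NF-Y motif) at -90, -62 and -59, the last 2 overlapping, and Thrsp held them at -79 and -52. The Pklr window held a carbohydrate response element (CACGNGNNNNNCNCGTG, the motif ChREBP binds) at -170 and a CCAAT box at -117. The upstream Mlxipl window held an E-box (CACGTG) at -98 and a CCAAT box at -173, and the downstream one a sterol regulatory element (TCACNCCAC, an SREBP motif) at -136. Both strands were searched. Of 32851 mouse promoter windows of the same length, 29.3% held CCAAT, 5.26% CACGTG, 0.858% TCACNCCAC and 0.0304% the carbohydrate response element. CCAAT stood in 7 of the 15 windows of the 10 genes, among them windows of Srebf1 and Acacb, not shown. The E-box, the sterol regulatory element and the carbohydrate response element each stood in 1. Windows of Acly, Acaca, Elovl6 and Me1 held none of these motifs. A match describes letters only and does not show binding.

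Levels are FPKM (fragments scaled to transcript length and library size), so comparing levels between genes depends on the lengths used. Lengths recovered from the values differed from annotated exon lengths for some genes, such as Thrsp (1102 against 2189 bases) and Acly (7850 against 5279). Changes are log2 fold changes on the scale of log2(FPKM + 1) with their standard errors (SE), from limma over the 9575 genes that averaged 1 FPKM or more. A gene was called at a Benjamini-Hochberg adjusted p under 0.05. Libraries held 35395712 to 39624160 fragments, as recovered from the values. The 7 of 8 hepatocyte markers in the table summed to 62776 to 71188 FPKM in BBBPH, 40418 to 62870 in model and 66648 to 75395 in control libraries, so the liver label held. Most of that sum was Alb (21144 to 50923 FPKM), and not every marker was lowest in model livers. Hnf4a averaged 134 FPKM in BBBPH, 193 in model and 172 in control livers, and Cyp2e1 6971, 6757 and 6319. Pancreatic acinar markers reached 3289 FPKM in BBBPH 2_2, and muscle markers 329.7 FPKM in control 2_1. Adipocyte markers, of a cell type that also makes fat, summed to 11.7 to 60.9 FPKM over all libraries. Most of that sum was Fabp4 (10.9 to 60.3 FPKM), while Adipoq was at most 1.53 FPKM and Plin1 at most 0.433 FPKM. In bulk liver RNA, fewer cells of a type and less RNA per cell cannot be told apart.

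In BBBPH against model livers 9 of the 10 genes were higher and 0 were lower, where 14.2% of all genes tested were called higher and 12.2% lower. Their median log2 change was 1.57, against 0.019 over all genes, and for 8 of them every BBBPH library lay above every model library, which 9.11% of all genes did. In model against control livers 0 were higher and 5 were lower (Srebf1, Acaca, Acacb, Fasn and Elovl6), where 29.9% of all genes were called higher and 8.64% lower. Their median was -0.85, against 0.117 over all genes, and Acaca, Acacb and Elovl6 lay below every control library, which 5.07% of all genes did. In BBBPH against control livers 6 were higher and 0 were lower, where 24.4% of all genes were called higher and 3.7% lower, and the libraries of both groups overlapped for all 10. That count fell to 2 without control 3_4, with no filter on low values, and with median-ratio or quantile scaling, and to 3 without BBBPH 2_2, BBBPH 3_2, control 1_5 or control 2_2. Under median-ratio scaling 661 of all genes were called higher and 944 lower in BBBPH against control, against 2337 and 354. BBBPH against model and model against control share the model libraries, so their opposite signs are not independent.

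**Figure D1:**
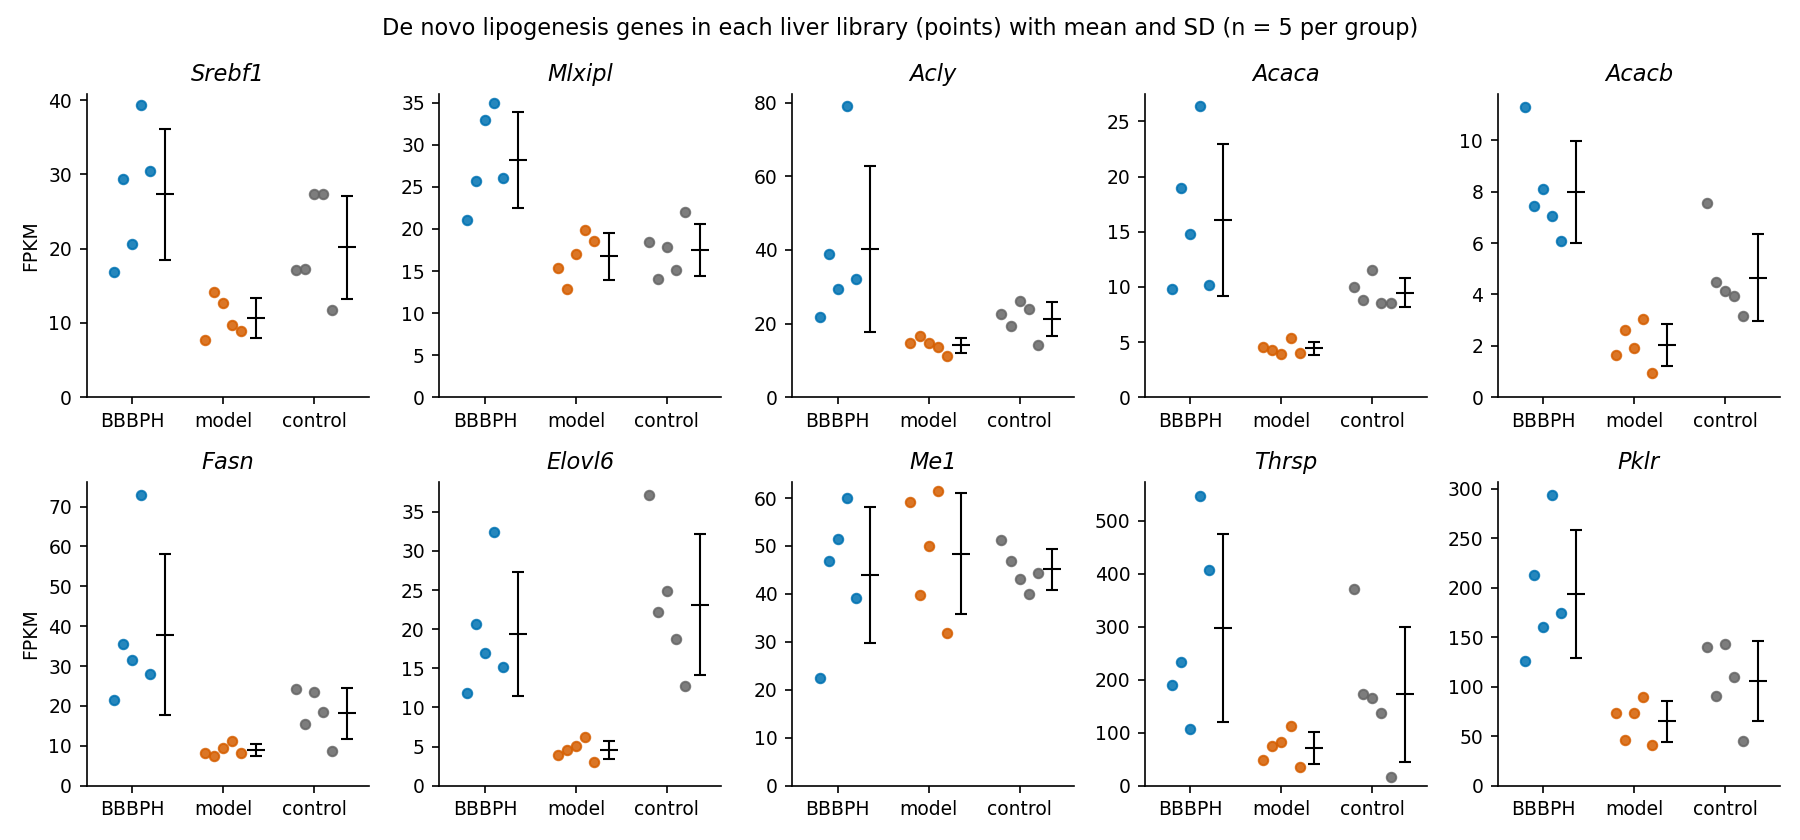
FPKM (y axis, linear, from 0) of the 10 genes in each library (points) of the BBBPH, model and control groups (x axis), with the mean and SD of 5 libraries in black. Apart from Me1 and Thrsp, no model library reached the lowest BBBPH library.

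Among the regulators, Srebf1 (chr11:60199089-60222581, minus strand; positions are of the whole protein-coding gene on GRCm38) had 16.9, 29.4, 20.6, 39.3 and 30.4 FPKM in BBBPH livers, 7.72, 14.2, 12.7, 9.77 and 8.93 FPKM in model livers, and 17.1, 17.3, 27.4, 27.3 and 11.7 FPKM in control livers. All BBBPH libraries were above all model libraries, while the lowest control library lay within the model range. The log2 change was 1.25 ± 0.25 (SE, limma adjusted p = 0.00166) in BBBPH against model and -0.82 ± 0.25 (adjusted p = 0.0155) in model against control. BBBPH against control gave 0.43 ± 0.25, with an adjusted p of 0.201. Gene-level values do not separate SREBP-1a from SREBP-1c.

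Mlxipl (chr5:135089890-135138382, plus strand) had 21.1, 25.7, 32.9, 35 and 26.1 FPKM in BBBPH livers, 15.3, 12.9, 17, 19.9 and 18.6 FPKM in model livers, and 18.5, 14, 17.9, 15.1 and 22 FPKM in control livers. Here model and control libraries lay in 1 range and BBBPH libraries above the model ones. It was called higher in BBBPH against model (0.71 ± 0.15, limma adjusted p = 0.00242) and against control (0.65 ± 0.15, adjusted p = 0.0055). Model against control was -0.06, with a 95% interval of -0.37 to 0.25.

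Thrsp (chr7:97412938-97417730, minus strand, also called Spot 14, a nuclear protein induced by thyroid hormone and carbohydrate) had the highest mean FPKM of the 10 in every group and the largest spread relative to its mean. It had 191, 234, 107, 547 and 408 FPKM in BBBPH livers, 47.6, 75.6, 81.6, 113 and 35.4 FPKM in model livers, and 371, 174, 165, 137 and 16.3 FPKM in control livers. The lowest BBBPH library was just under the highest model library, and control 3_4 was the lowest of all 15. BBBPH against model was called (1.95 ± 0.65, limma adjusted p = 0.0359), but the call was lost when any of BBBPH 2_2, 3_2 or 3_4 or model 1_1, 1_4, 2_1 or 3_4 was left out (adjusted p 0.0502 to 0.0901). Model against control was not called (-0.87 ± 0.65, adjusted p = 0.3) and was called without control 3_4 (-1.57, adjusted p = 0.014).

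At the entry of carbon, Pklr (chr3:89136142-89146784, plus strand) had 126, 213, 160.3, 294 and 174 FPKM in BBBPH livers, 73.7, 46.5, 73.6, 89.2 and 41 FPKM in model livers, and 139.8, 90.2, 143, 109.5 and 44.7 FPKM in control livers. Every BBBPH library was above every model library (1.56 ± 0.31, limma adjusted p = 0.00164). Model against control missed the threshold (-0.65 ± 0.31, adjusted p = 0.107) and passed it without control 3_4 (-0.92, adjusted p = 0.0122). BBBPH against control was called (0.92, adjusted p = 0.0359), a call lost in 10 of 29 alternatives, among them without control 3_4 (0.64, adjusted p = 0.0806) and without BBBPH 2_2, 3_2 or 3_4 or control 1_5 or 2_2. Pklr shares 711 exon bases (22% of its own) with Hcn3 on the opposite strand, and Hcn3 was at most 0.145 FPKM in any library. How fragments of the shared bases were counted is not stated, and their part in the Pklr level was not tested.

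Acly (chr11:100476353-100528000, minus strand) had 21.7, 39, 29.3, 79.1 and 32 FPKM in BBBPH livers, 14.7, 16.6, 14.7, 13.6 and 11.1 FPKM in model livers, and 22.6, 19.3, 26, 24 and 14.3 FPKM in control livers. Again no model library reached the BBBPH range (1.31 ± 0.25, limma adjusted p = 0.00152), and 1 control library fell among the model ones. Model against control was -0.54 ± 0.25 and not called (adjusted p = 0.105), and it was called in 5 of 29 alternatives: without BBBPH 3_2 (-0.54, adjusted p = 0.0196), with median-ratio or quantile scaling (-0.69 and -0.66), with library weights and in the 2-group fit. BBBPH against control was called (0.77, adjusted p = 0.0334), a call lost in 11 of 29 alternatives, among them without BBBPH 2_2 or 3_2 or control 1_5 or 3_4 (adjusted p 0.0571 to 0.083).

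Me1 (chr9:86581371-86695953, minus strand) had 22.5, 46.8, 51.5, 60 and 39.2 FPKM in BBBPH livers, 59.2, 39.7, 49.9, 61.4 and 31.8 FPKM in model livers, and 51.3, 46.8, 43.2, 40 and 44.4 FPKM in control livers. It was the gene of the 10 that was called in none of the 3 comparisons. Its 95% interval was -0.63 to 0.30 in BBBPH against model and -0.41 to 0.53 in model against control (limma), so changes as large as those of Acaca or Fasn in BBBPH against model lie outside it.

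For the carboxylases, Acaca (chr11:84129672-84401651, plus strand, the cytosolic enzyme of fatty acid synthesis) had 9.83, 19, 14.8, 26.4 and 10.2 FPKM in BBBPH livers, 4.51, 4.3, 3.94, 5.35 and 3.99 FPKM in model livers, and 10, 8.81, 11.5, 8.54 and 8.54 FPKM in control livers. Model libraries lay below both other groups without overlap. The changes were 1.57 ± 0.20 in BBBPH against model (limma adjusted p = 6.79e-05) and -0.95 ± 0.20 in model against control (adjusted p = 0.00193). BBBPH against control was 0.62 ± 0.20 (adjusted p = 0.0317), a call lost in 13 of 29 alternatives, among them without BBBPH 2_2, 3_1 or 3_2 or control 1_5, 2_2 or 3_4 (adjusted p 0.0513 to 0.0757).

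Acacb (chr5:114146535-114250761, plus strand), whose product at the mitochondrion restrains fatty acid entry through carnitine palmitoyltransferase, had 11.3, 7.44, 8.11, 7.05 and 6.07 FPKM in BBBPH livers, 1.65, 2.62, 1.93, 3.03 and 0.923 FPKM in model livers, and 7.54, 4.48, 4.12, 3.94 and 3.15 FPKM in control livers. Model was again lowest without overlap, and BBBPH 2_1, the lowest BBBPH library for 8 of the other genes, was the highest of all 15 here. The changes were 1.59 ± 0.21 in BBBPH against model (limma adjusted p = 8.75e-05), -0.90 ± 0.21 in model against control (adjusted p = 0.00382) and 0.69 ± 0.21 in BBBPH against control (adjusted p = 0.0242). The last call was lost in 8 of 28 alternatives, among them without BBBPH 2_1 or control 2_2 or 3_4 (adjusted p 0.0528 to 0.0612). At such levels the log2(FPKM + 1) scale makes changes smaller: the ratio of mean FPKM was 3.94 for BBBPH over model.

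Fasn (chr11:120805846-120824547, minus strand) had 21.6, 35.5, 31.6, 72.9 and 27.9 FPKM in BBBPH livers, 8.12, 7.45, 9.57, 11.1 and 8.21 FPKM in model livers, and 24.3, 15.4, 23.5, 18.6 and 8.76 FPKM in control livers. BBBPH and model did not overlap (1.86 ± 0.28, limma adjusted p = 0.000259), with a ratio of means of 4.26. Model against control was called (-0.88 ± 0.28, adjusted p = 0.023), and not without control 1_1 (adjusted p = 0.0597) or control 2_1 (adjusted p = 0.0553). BBBPH against control was 0.98 ± 0.28 (adjusted p = 0.0197).

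Elovl6 (chr3:129532355-129638495, plus strand) had 11.8, 20.6, 17, 32.4 and 15.1 FPKM in BBBPH livers, 3.94, 4.56, 5.12, 6.16 and 3.06 FPKM in model livers, and 37.1, 22.2, 24.9, 18.8 and 12.7 FPKM in control livers. Model lay below both other groups, and its change against control, -2.06 ± 0.26 (limma adjusted p = 4.67e-05), was the largest fall of the 10. BBBPH against model was 1.82 ± 0.26 (adjusted p = 0.000182), and BBBPH against control was not called (-0.24, 95% interval -0.80 to 0.32).

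**Figure D2:**
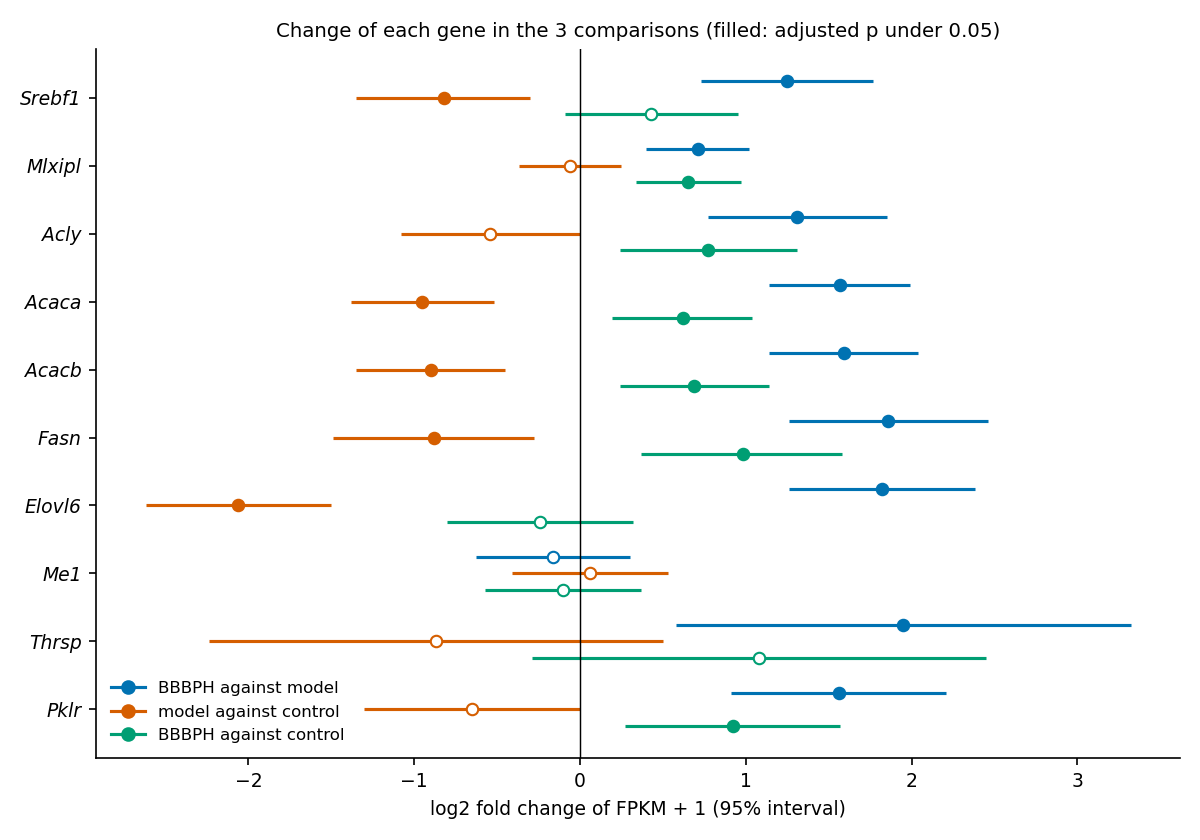
Log2 fold change of FPKM + 1 (x axis) of each gene (y axis) in BBBPH against model, model against control and BBBPH against control, with 95% intervals, filled where the adjusted p was under 0.05. The intervals of Me1 include 0 in all 3, and Elovl6 has the most negative value, -2.06 in model against control.

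The order of FPKM levels, which depends on the transcript lengths used, also differed between groups. Thrsp, Pklr and Me1 were the 3 highest in every group and Acaca and Acacb the 2 lowest, while Elovl6 stood at rank 4 in control livers and at rank 8 in BBBPH and in model livers. The Elovl6 to Fasn ratio of FPKM averaged 0.53 ± 0.0505 in BBBPH, 0.512 ± 0.0898 in model and 1.3 ± 0.243 in control livers (SD, n = 5), and every control library was above every other library. Fasn over Me1 averaged 0.851 ± 0.239 in BBBPH, 0.191 ± 0.0434 in model and 0.402 ± 0.138 in control livers. Acaca over Acacb overlapped in all groups, with means of 2.14, 2.5 and 2.19 in BBBPH, model and control livers. These ratios were chosen after the values were seen and were not tested.

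**Figure D3:**
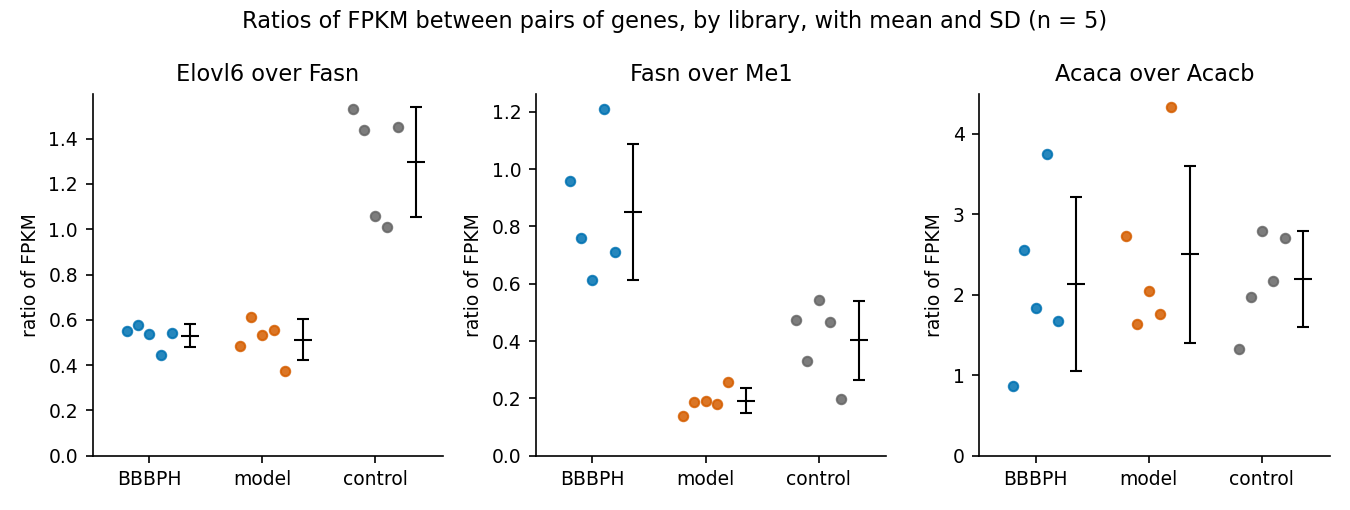
Ratio of FPKM (y axis, from 0) between pairs of the genes in each library (points) of the BBBPH, model and control groups (x axis), with mean and SD (n = 5). Elovl6 over Fasn is 1.01 or more in control libraries and at most 0.612 in the others.

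Libraries differed within groups for most of the genes together. BBBPH 3_2 was the highest BBBPH library for 9 genes, BBBPH 2_1 the lowest for 8, model 2_3 the highest model library for 8 and control 3_4 the lowest control library for 8. With group means removed, the 45 pairs of genes had a median r of 0.57 over the 15 libraries (-0.26 to 0.90), and Acacb had the lowest median, 0.05. This is a description: genes of 1 library share its RNA and depth. Pdk4 (pyruvate dehydrogenase kinase, induced by fasting) was 39.1 FPKM in control 3_4 and 1.4 to 3.93 in the other controls, and 23.9 FPKM in BBBPH 2_1 and 37.6 in BBBPH 3_1 against 2.73 to 3.68 in the other BBBPH libraries. Dbp, a clock output gene, was 3.51 FPKM in BBBPH 2_1 and 30.8 to 52.1 in the other BBBPH libraries. Its range was 6.03 to 32.1 FPKM in model libraries and 14.6 to 38.3 FPKM in control libraries. Both genes were named after their values were seen, and their part in the lipogenic levels was not tested. BBBPH 3_1 was the lowest BBBPH library for Thrsp alone.

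**Figure D4:**
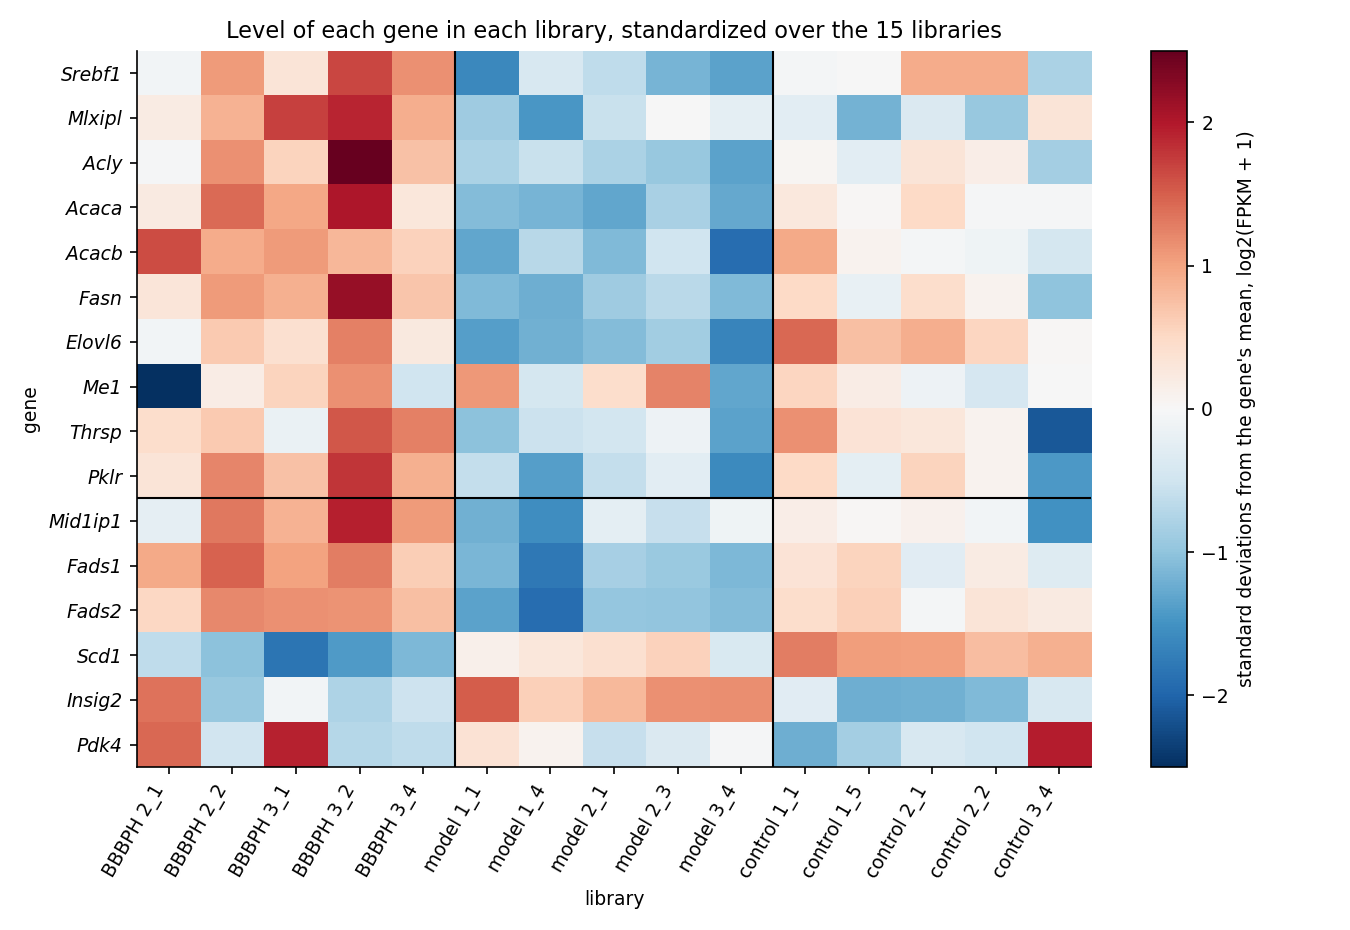
Level of each gene (rows; below the line, 6 other genes) in each library (columns), in standard deviations from the gene's mean of log2(FPKM + 1) over the 15 libraries, red high and blue low. Column BBBPH 3_2 is the highest of its group for 9 of the 10 genes, and control 3_4 the lowest of its group for 8.

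Counts in the lists that follow stand beside all-gene shares of 14.2% higher and 12.2% lower in BBBPH against model (median 0.019) and of 29.9% higher and 8.64% lower in model against control (median 0.117). Around Srebf1, 17 of 18 genes for SREBP processing and lipogenic transcription partners were tested: 3 were higher and 3 lower in BBBPH against model (median 0.14), and 5 higher and 0 lower in model against control (median 0.08), a share of higher calls near that of all genes. Insig2, which holds SREBP in the endoplasmic reticulum, averaged 20.5 FPKM in BBBPH, 35.6 in model and 13.4 in control livers. It was lower in BBBPH against model (-0.89, limma adjusted p = 0.018; 0.0658 with the first digit of the replicate number as a block) and higher in model against control (1.36, adjusted p = 0.000852), signs opposite to those of Srebf1. Mid1ip1, which binds acetyl-CoA carboxylase and is a relative of Thrsp, was higher in BBBPH against model (1.31, adjusted p = 0.00494), and Usf2 also (0.50, adjusted p = 0.00308). Srebf2, the sterol-synthesis SREBP, was higher in model against control (0.51, adjusted p = 0.00071). Insig1 (0.33, adjusted p = 0.0519), Nr1h3, which encodes LXR alpha (0.14, adjusted p = 0.138), and Scap (0.05, adjusted p = 0.625) were not called in BBBPH against model.

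Of 10 tested desaturation, elongation and glycerolipid genes, 2 were higher and 1 lower in BBBPH against model (median 0.25), and 1 higher and 4 lower in model against control (median -0.11). Scd1, the stearoyl-CoA desaturase that acts after Fasn and Elovl6, had 225, 129, 39.4, 72.6 and 110.2 FPKM in BBBPH livers, 661, 829.7, 1000, 1275 and 321 FPKM in model livers, and 3528, 2525, 2431, 1716 and 2010 FPKM in control livers. The 3 groups did not overlap, and Scd1 was lower in BBBPH against model (-2.90 ± 0.41, limma adjusted p = 0.000147) where 9 of the 10 genes were higher. The polyunsaturated desaturases Fads2 (1.76, adjusted p = 2.93e-06) and Fads1 (1.56, adjusted p = 7.89e-06) were higher in BBBPH against model and lower in model against control (-1.24 and -0.89).

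Of 13 ChREBP target and fructose genes, 8 were higher and 1 lower in BBBPH against model (median 0.62), and 1 higher and 3 lower in model against control (median -0.20). Txnip, a sugar-responsive ChREBP target (1.02, limma adjusted p = 0.00523), the triokinase Tkfc (1.12, adjusted p = 0.000809) and the glucose-6-phosphatase G6pc (2.10, adjusted p = 0.00143) were higher in BBBPH against model. Gpd1, which makes glycerol-3-phosphate, was lower (-0.94, adjusted p = 0.000248). Of 17 genes from glycolysis to citrate, 4 were higher and 2 lower in BBBPH against model (median 0.13), and 5 higher and 1 lower in model against control (median 0.07), again near the shares of all genes. The citrate carrier Slc25a1 was higher in BBBPH against model (0.40, adjusted p = 0.0027), and Pcx, pyruvate carboxylase, lower (-0.30, adjusted p = 0.0183). The Pcx call was lost in 4 of 29 alternatives, among them without model 1_1 (0.0503) and with the first digit of the replicate number as a block (0.103).

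Of 8 cytosolic NADPH genes, 1 was higher in BBBPH against model (Tkt, 0.35, limma adjusted p = 0.0498), a call at the threshold that was lost in 19 of 29 alternatives, 12 of them without a single library. Pgd and Taldo1 were higher in model against control (0.51 each, adjusted p 0.00336 and 0.00116). G6pdx was not called (0.13 in BBBPH against model, adjusted p = 0.455). Of 16 insulin and energy-sensing genes, 5 were higher in BBBPH against model (median 0.16), among them Akt1 (0.25, adjusted p = 0.00249) and Prkab1 (0.30, adjusted p = 0.00232). In model against control 5 were lower (median -0.07), among them Irs2 (-0.85, adjusted p = 0.0104) and the insulin receptor Insr (-0.21, adjusted p = 0.0152).

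Of 5 genes for malonyl-CoA breakdown and the carnitine shuttle, 2 were higher and 1 lower in BBBPH against model (median 0.03). Cpt1a, which malonyl-CoA inhibits, was higher (0.54, limma adjusted p = 0.000433), as was malonyl-CoA decarboxylase Mlycd (0.44, adjusted p = 0.000803), and Cpt2 was lower (-0.28, adjusted p = 0.0225). The Cpt2 call was lost in 5 of 29 alternatives, among them without BBBPH 2_2 (0.0629), without BBBPH 3_2 (0.0601) and with quantile scaling (0.0682). Mitochondrial fatty acid synthesis, which runs on other enzymes than Fasn, had 1 of 7 genes higher in BBBPH against model (Lipt2, 0.34, adjusted p = 0.0152), and Oxsm and Lias higher in model against control (0.36 and 0.38; Oxsm was not called under median-ratio or quantile scaling). Of 9 fasting-response genes, 1 was higher and 2 lower in BBBPH against model (median 0.09), the lower ones being Cdkn1a (-2.71, adjusted p = 0.000806) and Tat (-1.16, adjusted p = 0.00388). Of 13 clock genes, 7 were higher and 3 lower in BBBPH against model (median 0.46), and 2 higher and 6 lower in model against control (median -0.46). Per3 (1.30 and -1.12) and Cry2 (0.67 and -0.39) were called in both, as were Per2, Cry1 and Tef with the same signs. Clock and Nr1d1 were called in both with the opposite signs, lower in BBBPH against model and higher in model against control. The hour at which livers were taken is not given in the labels, and its part in the lipogenic levels was not tested.

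**Figure D5:**
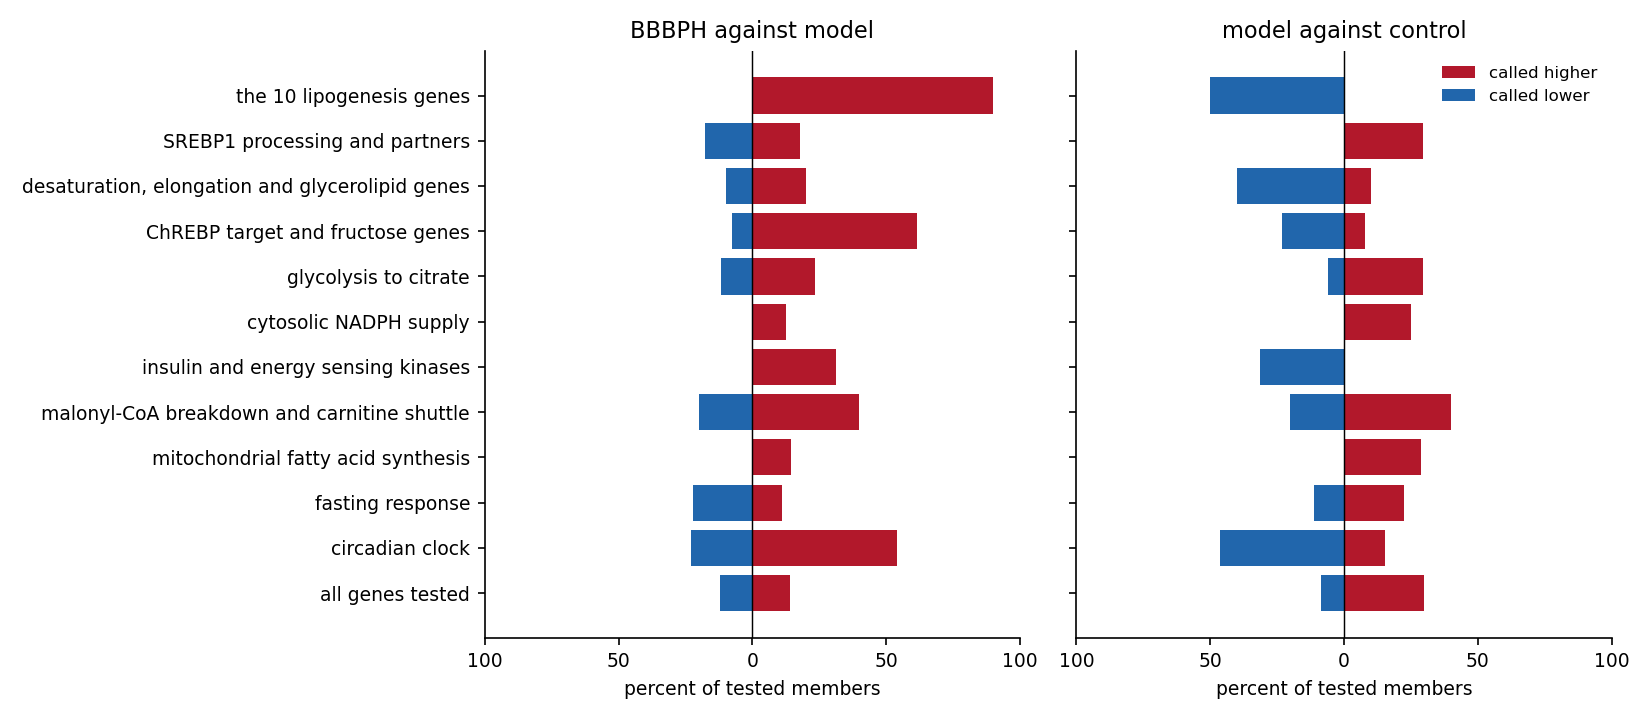
Percent of tested members (x axis) called higher (red, right) or lower (blue, left) in BBBPH against model and in model against control, for the 10 genes, the 10 related lists and all genes tested (y axis). Among all genes, 14.2% were higher and 12.2% lower in BBBPH against model.

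The genes outside the 10 whose log2(FPKM + 1) was most like their mean standardized level over the 15 libraries were Vwce (r = 0.958), Gpi1 (0.954), Erap1 (0.953), Ext1 (0.941) and Fars2 (0.938). With group means removed, r was 0.89, 0.87, 0.83, 0.80 and 0.83 in the same order. Pnpla3, an SREBP-1c target, was below the 1 FPKM minimum and was not tested.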

How the data were processed

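Liver RNA of 15 libraries was extracted with TRIzol and prepared with the VAHTS Universal V6 kit, per the labels' protocols, which do not state strandedness. Values are FPKM as deposited by the authors; fastp, HISAT2, HTSeq, DESeq2 and build mm10 appear in the submitters' processing notes, without versions or roles. Of 17527 genes, the 9575 that averaged 1 FPKM or more entered the test, by limma 3.58.1 (R 4.3.3, statmod 1.5.0) on log2(FPKM + 1), with 3 group means over 15 libraries (12 residual degrees of freedom), eBayes with trend and Benjamini-Hochberg adjustment per comparison (call under 0.05). Fragment totals (35395712 to 39624160) were recovered from the steps of the values, for 13217 genes with 100% of values within 0.02 of whole, and a single fragment in 1 kilobase is worth 0.0252 to 0.0283 FPKM. The procedures were tested on simulated data. Replicate numbers are shared between groups with no stated meaning and formed no block.

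Positions and promoters are from GENCODE M21 and RefSeq on GRCm38. The 10 genes, the lists and the tests were chosen with earlier results of these data known. Named genes were the 10, the 3 smallest adjusted p per list, 14 fixed genes and the 5 most alike genes. Some genes the rule took are not reported here; they stay in the tests and list counts. Ctrb1, Saa2, Tnnt3, Hcn3, Pdk4 and Dbp were added after their values were seen. Further clock genes called in both comparisons and some cell type markers were also named. A fit that left out, together, the BBBPH and control libraries lowest for most of the 10 genes was run and is not used, since that choice follows the outcome. The 29 alternatives used were all planned.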

Additional observations from a re-analysis of the deposited data

Results flagged for a closer look

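For the 10 genes and 46 others named by the rule or added later, 168 groups of 5 libraries were examined. Of these, 15 had a library that stood apart by Dixon's test at its 95% critical value, among them 1 of the 30 groups of the lipogenesis genes. Other genes named in the text, such as Clock, Per2, Fabp4, Adipoq and Col1a1, were not examined in this way. Chance flags about 1 in 20 groups, but 5 of the 15 are of genes added after their values were seen (Pdk4, Hcn3, Ctrb1, Saa2 and Tnnt3), so the count cannot be set against that rate. Fasn was 72.9 FPKM in BBBPH 3_2, against 21.6 to 35.5 in the other BBBPH libraries, and Tkfc was 247 FPKM there, against 124 to 155. BBBPH 2_1 stood apart for Insig2 (41.1 FPKM, others 12.4 to 19.8) and Cdkn1a (10 FPKM, others 0.376 to 0.73). Control 3_4 stood apart for Cdkn1a (2.58 FPKM, others 0.936 to 1.21), Mid1ip1 (6.59 FPKM, others 15.2 to 17.3), Fars2 (2.04 FPKM, others 2.83 to 2.93) and Pdk4 (39.1 FPKM, others 1.4 to 3.93). In model 2_3, Taldo1 was 105 FPKM (others 80.4 to 87.1) and Insr 16.5 FPKM (others 14.2 to 14.8). At very low levels, Pnpla3 was 0.0294 FPKM in model 3_4 (others 0 to 0.00584) and Hcn3 0.0554 FPKM in model 1_1 (others 0 to 0.0083). A few genes of other tissues or of the acute phase also stood apart: Ctrb1 at 978 FPKM in BBBPH 2_2 (others 0.118 to 0.256), Saa2 at 14965 FPKM in model 1_4 (others 61.6 to 194) and Tnnt3 at 70 FPKM in control 2_1 (others 0 to 0.145).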

How the results depend on the processing

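Of the 10 genes and the other genes followed through the 29 alternatives, none that was called changed its sign. Those followed leave out most cell type markers and the clock genes Per2, Cry1, Tef, Clock and Nr1d1. Acaca, Acacb and Elovl6 kept their calls in BBBPH against model and in model against control under every alternative that tested them (Acacb is not tested at a 5 FPKM minimum). Leaving out each library in turn gave 8 to 9 of the 10 genes called in BBBPH against model, 4 to 7 in model against control and 2 to 6 in BBBPH against control, and 2080 to 2645, 3100 to 3763 and 1864 to 2846 of all genes. Median-ratio and quantile scaling gave 7 and 6 in model against control. BBBPH against control was the least stable: 2 genes were called with no filter, with median-ratio scaling and with quantile scaling, 2 without control 3_4, 3 without BBBPH 2_2, BBBPH 3_2, control 1_5 or control 2_2, and 3 with the 3 libraries model 1_4, BBBPH 2_2 and control 2_1 left out. Over all genes, a 5 FPKM minimum left 1634, 2259 and 1502 calls in the 3 comparisons, against 2533, 3692 and 2691. Median-ratio and quantile scaling left 1605 and 1540 calls in BBBPH against control and moved the share of higher calls to 41.2% and 44.9%, against 86.8%; in model against control it was 45% and 46.3%, against 77.6%. The median of all genes was then -0.015 and 0.003 in BBBPH against control, against 0.133, and -0.012 and -0.010 in model against control, against 0.117. With the first digit of the number as a replicate block, 9, 5 and 4 of the 10 genes and 1795, 3586 and 1844 of all genes were called. With the whole replicate number as a replicate block, 3, 3 and 0 of the 10 genes and 305, 1315 and 185 of all genes were called. Numbers 1_4, 1_5, 2_3, 3_1 and 3_2 each occur in a single library, which such a block fits exactly. The fit thus rests on the 10 libraries that share a number with another group. Same-numbered libraries correlated between -0.33 and 0.02 in their residuals and 0 of 10 best with their own number, so the numbers are not shown to pair libraries. The call of Thrsp in BBBPH against model was also lost with no filter (adjusted p = 0.0723) and with robust eBayes (0.0647). The causes were not tested.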

Other observations

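Markers of other liver cells were compared in the same test. All-gene shares were 14.2% higher and 12.2% lower in BBBPH against model, and 29.9% higher and 8.64% lower in model against control. Of 7 stellate cell and fibroblast markers, 4 were lower in BBBPH against model and 6 higher in model against control, among them Col1a1 (-0.89, limma adjusted p = 0.00184, and 1.04, adjusted p = 0.000427) and Col3a1 (-1.05, adjusted p = 0.000215, and 1.10, adjusted p = 0.000104). Of 8 macrophage markers, 2 were lower in BBBPH against model, Trem2 (-0.73, limma adjusted p = 0.00789) and Gpnmb (-0.84, adjusted p = 0.0485, near the threshold). The others were not called there: Clec4f averaged 46.5 FPKM in BBBPH and 46 in model livers, and Adgre1 12.4 FPKM in both. In model against control 3 were higher. Summed levels of the macrophage list overlapped, at 223 to 352 FPKM in BBBPH, 208 to 332 in model and 200 to 271 in control libraries. Of 6 endothelial markers, 1 was higher and 1 lower in BBBPH against model, and 3 were higher and 1 lower in model against control. Fewer markers were tested for neutrophils (3), cholangiocytes (1) and T and B cells (1). Summed levels of the stellate list were 124 to 139 FPKM in BBBPH, 139 to 177 FPKM in model and 105 to 130 FPKM in control libraries. The genes named here were chosen after their values were seen. Their part in the lower lipogenic levels of model livers was not tested.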
